A study of Mus musculus with 4 samples.

Results

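Marginal zone B cells of the mouse spleen were selected from 4 droplet single-cell RNA libraries by their own RNA. A barcode was a member when it held at least 3 unique molecular identifiers (UMIs, each 1 captured RNA molecule) of the B cell genes Cd79a, Cd79b and Ms4a1 together and at least 2 of Fcrl5, Dtx1 and Myof together. It also had to hold no UMI of Cd93, Akap12, Cd3d, Cd3e or Cd3g and fewer than 5 each of Jchain and Lyz2. The rule took 1897 of the 20476 barcodes that passed the quality filters, among 24106 deposited, and 1897 of 9074 B cells. The 4 groups were TRIF-KO mice given TNF (711 members of 2801 B cells), TRIF-KO mice given PBS (399 of 2696), C57BL/6 wild-type (WT) mice given TNF (519 of 2518) and WT mice given PBS (268 of 1059). All were 10 weeks old and received 100 µl into a vein, with 9 µg of mouse TNF or without it, and spleen cells were collected after 4 h. Red blood cells had been lysed and dead cells removed with magnetic beads. TRIF is the adaptor of Toll-like receptors 3 and 4 encoded by Ticam1, and the question was how its loss bears on the response of the spleen to TNF, a cytokine of acute inflammation. The labels name neither the TRIF-KO allele nor the number of mice behind a library.

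Each group was 1 library, so no difference could be set against a spread between mice, and genotype or treatment cannot be told apart from the library. Levels are given as CPM, the UMIs of a gene as a share of all UMIs of the members in a library, scaled to the same total in every library, and each ratio is a log2 ratio followed by its exact 95% interval, which covers counting error only. A gene is called higher or lower when its ratio was at least 2-fold and the interval left out equality, which is 0 on the log2 scale. A call is a size in these libraries and not a test. The members held 7171703 UMIs in TRIF-KO TNF, 2831062 in TRIF-KO PBS, 3778760 in WT TNF and 2763058 in WT PBS, with medians of 8653, 6276, 6452 and 9118.5 UMIs per cell in that order. Pairs of libraries shared 3 to 15 barcodes, and 0 of them were members in both.

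Marginal zone B cells sit at the border between the white and the red pulp, where blood empties into the spleen, and answer blood-borne antigens early with IgM. Their fate depends on Notch2 signalling. Complement receptor 2 (Cr2, CD21) binds opsonised antigen, the sphingosine-1-phosphate receptors S1pr1 and S1pr3 hold the cells in the marginal zone, and Cxcr5 draws them towards the follicle. TNF acts through the receptors Tnfrsf1a and Tnfrsf1b, which are known for activating NF-kB.

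The regulatory sequences of 3 genes that carry the results below are shown first. They are the 250 bases before the transcription start in RefSeq on GRCm38.p6, read on the gene's strand, with the motif matches in capitals. Cr2 is the marker that was lower after TNF, and Socs3 the feedback gene whose response differed between B cell types. Ifit3 is an interferon-stimulated gene that was lower in TRIF-KO members than in WT members under PBS.
Cr2 (chr1:195176720-195176969, minus strand): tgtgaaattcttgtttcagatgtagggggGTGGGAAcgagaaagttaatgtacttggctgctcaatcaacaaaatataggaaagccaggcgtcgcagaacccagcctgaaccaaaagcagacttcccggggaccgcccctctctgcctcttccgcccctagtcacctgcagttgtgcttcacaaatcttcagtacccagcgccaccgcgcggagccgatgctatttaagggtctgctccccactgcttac
Socs3 (chr11:117969367-117969616, minus strand): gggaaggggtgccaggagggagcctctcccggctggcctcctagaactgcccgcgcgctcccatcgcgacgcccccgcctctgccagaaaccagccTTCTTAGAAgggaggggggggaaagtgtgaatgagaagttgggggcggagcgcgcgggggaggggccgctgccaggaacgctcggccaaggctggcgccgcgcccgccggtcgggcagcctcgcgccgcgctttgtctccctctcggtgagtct
Ifit3 (chr19:34583279-34583528, plus strand): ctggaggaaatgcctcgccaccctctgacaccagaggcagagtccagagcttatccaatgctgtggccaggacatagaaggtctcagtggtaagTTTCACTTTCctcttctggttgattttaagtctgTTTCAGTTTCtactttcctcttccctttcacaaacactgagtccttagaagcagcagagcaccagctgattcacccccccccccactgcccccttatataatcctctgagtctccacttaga
In Cr2 the capitals are GTGGGAA, the letters of the RBPJ motif through which Notch acts, 221 bases before the start. In Socs3 they are a STAT motif (TTCNNNGAA) 154 bases before the start, and in Ifit3 a pair of interferon-stimulated response elements (GAAA, any 2 bases and GAAA again, here on the opposite strand) 156 and 122 bases before the start. Searched on both strands, these letters occur in 5.42%, 7.02% and 2.98% of 32851 RefSeq promoter windows of the same length, so a match describes a window and is not a shown site.

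The label was checked on genes the rule did not count. The comparison was with the B cells without any UMI of Fcrl5, Dtx1 or Myof, called other B cells here (1611, 1924, 1586 and 621 cells in the same order of groups, with medians of 5128, 3587.5, 3759 and 5412 UMIs). Cr2 (ENSMUSG00000026616, chromosome 1, 195136811 to 195176716 on GRCm38, GENCODE M21) stood at 536 CPM in TRIF-KO TNF, 994 in TRIF-KO PBS, 457 in WT TNF and 1200.1 in WT PBS in members. In other B cells it stood at 199 CPM in TRIF-KO TNF, 317 in TRIF-KO PBS, 189 in WT TNF and 369.8 in WT PBS. S1pr3 stood at 16.7 CPM in TRIF-KO TNF, 62.5 in TRIF-KO PBS, 15.6 in WT TNF and 53.6 in WT PBS, against 0.963, 4.48, 1.37 and 2.47 CPM in other B cells of the same libraries. The low-affinity IgE receptor Fcer2a (CD23), high on follicular B cells, lay the other way with 76.3 CPM in TRIF-KO TNF, 138 in TRIF-KO PBS, 49.0 in WT TNF and 149 in WT PBS in members, against 205, 506, 156 and 447 CPM in other B cells. Cr2, S1pr3 and Fcer2a separate the members from other B cells in the direction of the label in all 4 libraries. Notch2 did not, being higher in members in WT TNF alone, with its values given under the Notch pathway below. The 9 measured markers of B1 and memory-like B cells were higher in members as a sum, though not each on its own. They summed to 214, 206, 177 and 211 CPM, against 167, 176, 131 and 182 CPM in other B cells. Of these 9, 4 were higher in members in all 4 libraries. Whether such cells are among the members was not tested.

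The counted genes themselves are a description of the gate. Fcrl5, an Fc receptor-like protein of marginal zone B cells, stood at 191 CPM in TRIF-KO TNF, 142 in TRIF-KO PBS, 232 in WT TNF and 168 in WT PBS. Dtx1, a Notch target that encodes the ligase Deltex 1, stood at 247 CPM in TRIF-KO TNF, 338 in TRIF-KO PBS, 286 in WT TNF and 303 in WT PBS. Myof, which encodes the membrane repair protein myoferlin, stood at 37.5 CPM in TRIF-KO TNF, 94.0 in TRIF-KO PBS, 73.3 in WT TNF and 87.2 in WT PBS, lowest in TRIF-KO TNF. UMIs of at least 2 of the 3 genes were held by 65.3% of members in TRIF-KO TNF, 69.4% in TRIF-KO PBS, 67.8% in WT TNF and 72.8% in WT PBS, and Dtx1 alone admitted 24.2%, 24.1%, 21.2% and 22.0%. Fcrl5 alone admitted 9.70%, 4.26%, 9.63% and 4.85%, a larger share in both TNF libraries, so the gate was not composed alike after TNF and PBS.

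The edge of the gate was gradual. For shares of cells with a UMI, each cell was thinned to 2000 UMIs, which kept 711, 394, 517 and 268 members. After thinning, Fcer2a was read in 54.0% of the WT PBS B cells with 0 UMIs of the counted genes, 49.1% with 1, 41.4% with 2, 21.7% with 3 or 4 and 11.6% with 5 or more. Cr2 ran the other way, with 43.3%, 56.2%, 64.3%, 70.0% and 82.6%. Members just inside the threshold, with 2 UMIs (232, 130, 166 and 70 cells), therefore lay between other B cells and the members with the most UMIs. The cells just outside, with 1 UMI, numbered 479, 373, 413 and 170. In cells other than B cells a Fcer2a UMI was read in 0.0731%, 0.28%, 0.58% and 0.442% at the same thinned depth.

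**Figure D1:**
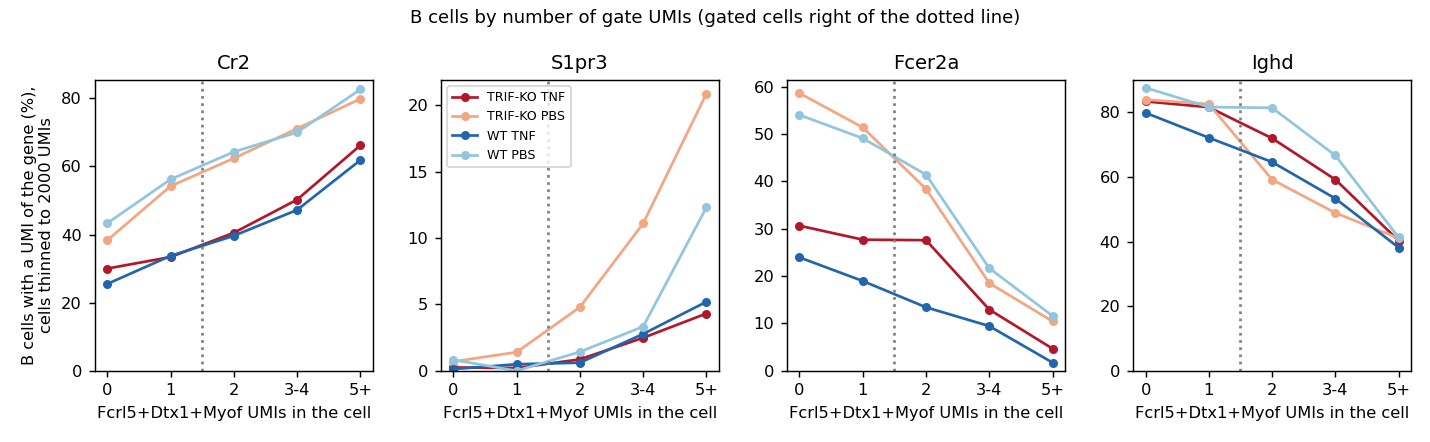
Share of B cells with a UMI of Cr2, S1pr3, Fcer2a or Ighd (vertical axis, percent, cells thinned to 2000 UMIs) by the number of Fcrl5, Dtx1 and Myof UMIs in the cell (horizontal axis), 1 line per library; members lie right of the dotted line. Cr2 and S1pr3 climb with the number of UMIs and Fcer2a and Ighd decline, with no step at the threshold.

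The plot of marker shares against gate UMIs also shows that the TNF libraries ran below the PBS libraries for Cr2 at every step, among cells outside the gate as well as inside it. Members made up 25.4% (23.8 to 27.0) of the B cells in TRIF-KO TNF, 14.8% (13.5 to 16.2) in TRIF-KO PBS, 20.6% (19.0 to 22.2) in WT TNF and 25.3% (22.7 to 28.0) in WT PBS, with exact Clopper-Pearson intervals. The rule counts UMIs, and the libraries with the deeper cells gave the larger shares. For a gate applied after thinning to 2000 UMIs, every condition of the rule was read on the thinned counts. Cells that the full rule left out could then enter, and the B cells numbered 2915, 2773, 2570 and 1155. The shares were then 6.79%, 5.19%, 7.47% and 7.79% in the same order, so that the excess of TRIF-KO TNF over WT TNF was not kept. No order of cell numbers is read from these shares.

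Markers of other cell types were present in members at levels that differed between lists and libraries. The defining T cell genes Cd3d, Cd3e and Cd3g were at 0 by the rule. The 8 monocyte and macrophage markers summed to 53.3 CPM in TRIF-KO TNF, 24.7 in TRIF-KO PBS, 13.5 in WT TNF and 36.6 in WT PBS, with 0 of the 8 at 0 in any library. The 6 neutrophil markers summed to 168, 11.7, 68.8 and 251.5 CPM, with Ly6g at 0 in every library but WT PBS. The 6 erythroid markers summed to 15822.9, 3546.4, 4599.1 and 5631.4 CPM in members, above Cr2 in every library, and were higher still in other B cells of each library. The 6 dendritic cell markers summed to 70.8, 48.0, 62.2 and 48.1 CPM in members and to 68.5, 75.2, 77.6 and 71.5 CPM in other B cells. The 5 natural killer cell markers summed to 2.79, 50.2, 3.97 and 49.9 CPM in members and to 33.5, 41.4, 29.4 and 46.6 CPM in other B cells. A UMI of another cell type's markers was held by 239, 67, 129 and 72 members, counted without the haemoglobin genes, S100a8, S100a9, Lyz2 and Bst2. Values given below without such members therefore keep cells that held only these uncounted RNAs. Apart from those values, the part of such members in the results was not tested.

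Ticam1 was not lower in members labelled TRIF-KO. It stood at 13.1 CPM in TRIF-KO TNF, 20.1 in TRIF-KO PBS, 5.56 in WT TNF and 15.2 in WT PBS, and was called higher in TRIF-KO TNF than in WT TNF (log2 1.24, 0.54 to 1.995) and lower with TNF in WT (log2 -1.45, -2.28 to -0.66), the first of which runs against the genotype label. The allele is not named, and a tag at the transcript's end that lies outside a deleted part checks nothing, so the libraries are called by their labels. Of the receptors for TNF, Tnfrsf1b (TNF receptor 2) stood at 8.51 CPM in TRIF-KO TNF, 8.48 in TRIF-KO PBS, 10.1 in WT TNF and 7.96 in WT PBS, whereas Tnfrsf1a (TNF receptor 1) had 4 UMIs in TRIF-KO TNF, 1 in TRIF-KO PBS, 1 in WT TNF and 6 in WT PBS. Tlr4 stood at 7.67 CPM in TRIF-KO TNF, 13.4 in TRIF-KO PBS, 6.09 in WT TNF and 8.69 in WT PBS, and Cd14, the co-receptor that hands lipopolysaccharide to TLR4, had 14 UMIs in TRIF-KO TNF, 1 in TRIF-KO PBS, 8 in WT TNF and 1 in WT PBS. Marginal zone B cells thus held few UMIs of TNF receptor 1 and CD14 in every library.

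The first comparison asked what TNF does to marginal zone B cells. In TRIF-KO, 187 of 9356 measured genes (2%) were called higher with TNF and 175 (1.87%) lower. In WT, 166 of 9335 (1.78%) were called higher and 469 (5.02%) lower. The median gene lay at log2 -0.03 in TRIF-KO and -0.16 in WT, and the excess of lower genes in WT went with this shift. Under median-of-ratios scaling the WT counts were 276 higher and 277 lower, with the median gene at 0.0011. WT ratios are therefore to be read against -0.16. The responses overlapped in part, with 43 genes called higher in both genotypes (22.99% of the TRIF-KO genes, 25.9% of the WT genes) and 74 called lower in both (42.3% and 15.8%).

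Receptors that place marginal zone B cells were lower with TNF in both genotypes. S1pr1 stood at 145 CPM in TRIF-KO TNF and 319 in TRIF-KO PBS (log2 -1.14, -1.27 to -1.01) and at 129 CPM in WT TNF and 332 in WT PBS (log2 -1.36, -1.52 to -1.20). S1pr3 stood at 16.7 CPM in TRIF-KO TNF and 62.5 in TRIF-KO PBS (log2 -1.90, -2.25 to -1.56) and at 15.6 CPM in WT TNF and 53.6 in WT PBS (log2 -1.78, -2.24 to -1.33). For both receptors the TNF libraries lay close together and below both PBS libraries, and their intervals did not overlap with those under PBS. The scavenger of CXCL12, Ackr3 (CXCR7), which marks marginal zone B cells in mice, stood at 3.90 CPM in TRIF-KO TNF and 14.5 in TRIF-KO PBS (log2 -1.89, -2.64 to -1.16) and at 2.38 CPM in WT TNF and 19.5 in WT PBS (log2 -3.04, -4.24 to -2.01). The WT ratio of Ackr3 rested on few UMIs and reached -6.04 without the members that held markers of other cell types.

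Not all positioning genes moved with them. Cxcr5, the receptor for the follicular chemokine CXCL13, stood at 116 CPM in TRIF-KO TNF and 119 in TRIF-KO PBS (log2 -0.04, -0.22 to 0.15) and at 98.7 CPM in WT TNF and 153 in WT PBS (log2 -0.63, -0.83 to -0.43), and neither ratio was called. Gpr183, the oxysterol receptor that guides B cells within follicles, was called lower in WT (log2 -1.42, -1.68 to -1.16) and stood at log2 -0.81, -1.03 to -0.60 in TRIF-KO. Cnr2, the cannabinoid receptor 2, known to retain marginal zone B cells, was called lower in WT (log2 -1.34, -1.70 to -0.99) and stood at log2 -0.65, -0.93 to -0.37 in TRIF-KO. Ccr6 was called higher in WT (log2 1.29, 1.02 to 1.56), and Cxcr4, the CXCL12 receptor, in TRIF-KO (91.6 CPM in TRIF-KO TNF and 40.6 in TRIF-KO PBS, log2 1.17, 0.89 to 1.47). Of the positioning and retention list, 2 of 27 measured genes were called higher and 4 lower in TRIF-KO (median log2 -0.18), and 1 of 26 higher and 5 lower in WT (median -0.26). Among members with at most 5% mitochondrial UMIs Cxcr4 stood at 0.78 in TRIF-KO and was no longer called.

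**Figure D2:**
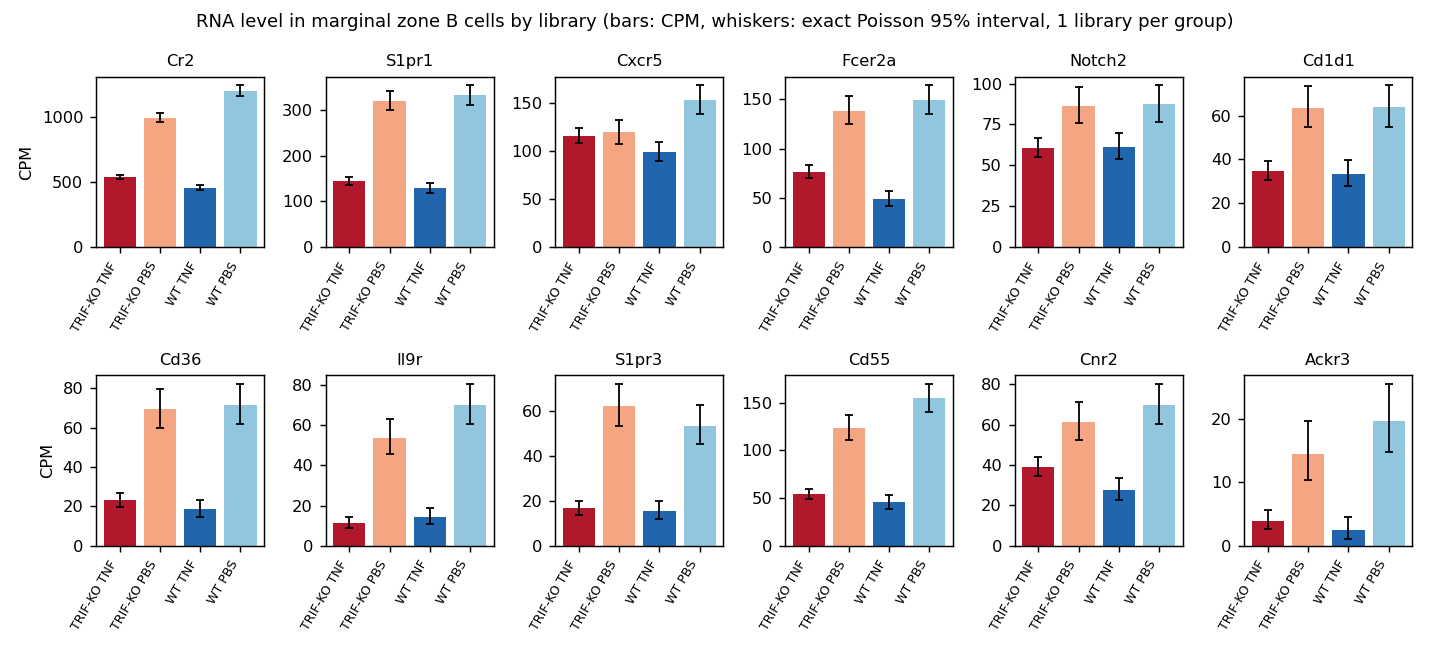
RNA level of 12 marginal zone and positioning genes in members (bars, CPM, axes from 0, with exact Poisson 95% intervals as whiskers) in the 4 libraries, 1 library per group. Cr2, S1pr1, S1pr3, Cd36, Il9r, Cd55 and Ackr3 are lower in both TNF libraries than in either PBS library, whereas Cxcr5 differs little between TRIF-KO TNF and TRIF-KO PBS.

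Cr2 and the complement regulator Cd55 shared this direction. Cr2 had a log2 ratio of -0.89, -0.96 to -0.82 in TRIF-KO, below the 2-fold threshold, and -1.39, -1.48 to -1.31 in WT, where it was called. A Cr2 UMI was read in 53.3% (49.6 to 57.0) of members thinned to 2000 UMIs in TRIF-KO TNF, 71.3% (66.6 to 75.7) in TRIF-KO PBS, 49.7% (45.3 to 54.1) in WT TNF and 75.0% (69.4 to 80.1) in WT PBS, shares that follow the level at a fixed depth and do not count the cells that expressed the gene. Before thinning these shares were 79.5%, 88.0%, 72.4% and 92.5%, and in cells other than B cells, with medians of 9353, 5803, 6375 and 8616 UMIs, thinned shares were 0.329%, 0.617%, 0.58% and 0.664%. Cd55, the decay-accelerating factor that restrains complement, stood at 54.1 CPM in TRIF-KO TNF and 124 in TRIF-KO PBS (log2 -1.20, -1.41 to -0.98) and at 45.5 CPM in WT TNF and 155 in WT PBS (log2 -1.77, -2.03 to -1.51). Fcer2a was called lower in WT (log2 -1.61, -1.86 to -1.35) and stood at log2 -0.86, -1.05 to -0.67 in TRIF-KO. All 3 genes were lower with TNF in other B cells too. There Cd55 stood at 183 CPM in TRIF-KO TNF, 396 in TRIF-KO PBS, 107 in WT TNF and 462 in WT PBS. Fcer2a stood at 205, 506, 156 and 447 CPM and Cr2 at 199, 317, 189 and 370 CPM in the same order. Of 11 complement and Fc receptor genes, 0 were called higher and 1 lower in TRIF-KO, and 1 higher (Cd46, log2 1.13, 0.06 to 2.33) and 3 lower in WT. With the gate applied after thinning the WT ratio of Fcer2a was -0.44, and without the members holding a Fcer2a UMI the TRIF-KO ratio of Cd55 was -0.95 and the WT ratio of Cd46 was 0.73.

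Other markers of the marginal zone state split. Cd36, a scavenger receptor, stood at 23.01 CPM in TRIF-KO TNF and 69.2 in TRIF-KO PBS (log2 -1.59, -1.90 to -1.28) and at 18.5 CPM in WT TNF and 71.7 in WT PBS (log2 -1.95, -2.37 to -1.55). Il9r, the interleukin 9 receptor, stood at 11.3 CPM in TRIF-KO TNF and 53.7 in TRIF-KO PBS (log2 -2.25, -2.66 to -1.85) and at 14.3 CPM in WT TNF and 70.2 in WT PBS (log2 -2.30, -2.76 to -1.85). Cd1d1, which presents lipids to natural killer T cells, was lower with TNF by less than 2-fold (log2 -0.87, -1.16 to -0.59 in TRIF-KO and -0.93, -1.28 to -0.60 in WT). Cd9, a tetraspanin of marginal zone and B1 cells, stood at 64.6 CPM in TRIF-KO TNF, 98.9 in TRIF-KO PBS, 122 in WT TNF and 78.9 in WT PBS, lower with TNF in TRIF-KO (log2 -0.62, -0.83 to -0.40) and higher in WT (log2 0.63, 0.39 to 0.86), and the difference between these ratios was called (log2 -1.24, -1.56 to -0.92), though not without the members holding a Fcer2a UMI (-0.89). Of 12 marginal zone markers outside the rule, 0 were called higher and 3 lower in each genotype, with medians of -0.88 in TRIF-KO and -0.71 in WT against -0.03 and -0.16 over all genes. In other B cells the same 12 genes had medians of -0.54 in TRIF-KO and -0.39 in WT.

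The Notch pathway had no called gene among 19 measured in either genotype. Notch2 stood at 60.5 CPM in TRIF-KO TNF, 86.2 in TRIF-KO PBS, 61.4 in WT TNF and 87.2 in WT PBS, log2 -0.51, -0.74 to -0.28 in TRIF-KO and -0.51, -0.77 to -0.24 in WT. In other B cells Notch2 stood at 63.1 CPM in TRIF-KO TNF, 100.6 in TRIF-KO PBS, 57.5 in WT TNF and 102.8 in WT PBS. Its target Hes1 stood at 134 CPM in TRIF-KO TNF and 171 in TRIF-KO PBS and at 132 CPM in WT TNF and 146 in WT PBS, and Hes5 at 25.5 CPM in TRIF-KO TNF and 34.6 in TRIF-KO PBS and at 17.5 CPM in WT TNF and 30.8 in WT PBS. The list medians, -0.32 in TRIF-KO and -0.42 in WT, lay below the medians of all genes.

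Genes higher with TNF included inhibitors of transcription and of signalling. Id2, which blocks E proteins, stood at 113 CPM in TRIF-KO TNF and 32.1 in TRIF-KO PBS (log2 1.81, 1.49 to 2.14) and at 209.9 CPM in WT TNF and 24.6 in WT PBS (log2 3.09, 2.73 to 3.47). Id3, its relative in B cells, lay the other way, at 48.5 CPM in TRIF-KO TNF and 105 in TRIF-KO PBS (log2 -1.11, -1.34 to -0.88) and at 34.7 CPM in WT TNF and 71.7 in WT PBS (log2 -1.05, -1.38 to -0.72). The Id2 response was smaller in TRIF-KO, with a difference between the log2 ratios of -1.28, -1.76 to -0.81, or -0.97 without the members holding a Fcer2a UMI. Id3 was short of 2-fold under several settings, with -0.83 in TRIF-KO when each cell was weighted equally and -0.49 in WT with the gate applied after thinning. Pmepa1, an inhibitor of TGF-beta signalling, stood at 74.6 CPM in TRIF-KO TNF and 19.8 in TRIF-KO PBS (log2 1.92, 1.52 to 2.34) and at 131 CPM in WT TNF and 23.9 in WT PBS (log2 2.46, 2.09 to 2.85). The intervals of the TNF and PBS libraries did not overlap for any of the 3 genes in either genotype.

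Socs3, the feedback inhibitor of JAK-STAT signalling whose promoter is shown above, stood at 44.6 CPM in TRIF-KO TNF and 8.12 in TRIF-KO PBS (log2 2.46, 1.85 to 3.14) and at 101 CPM in WT TNF and 12.7 in WT PBS (log2 2.99, 2.49 to 3.54). It was lower in TRIF-KO TNF than in WT TNF (log2 -1.18, -1.40 to -0.96), but the difference between the responses was not called (log2 -0.55, -1.33 to 0.24). Stat3, the factor that Socs3 restrains, was called higher in TRIF-KO (log2 1.11, 0.86 to 1.37) and stood at 0.88, 0.66 to 1.10 in WT. Ptpn1, a phosphatase that dephosphorylates JAK kinases, was called higher in WT (log2 1.06, 0.92 to 1.19) and stood at 0.999, 0.86 to 1.14 in TRIF-KO, just short of 2-fold, and with a gate of at least 5 UMIs the WT ratio was 0.91. Of 33 SOCS and JAK-STAT genes measured, 2 were called higher and 0 lower in TRIF-KO, and 3 higher and 3 lower in WT. A STAT motif lay in 4 of the 41 promoter windows matched for the 43 genes called higher in both genotypes (9.76%), and in 5.84% of the windows of all measured genes.

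Glucocorticoid-responsive genes formed the list with the largest share of called members in both genotypes. Of 19 measured, 7 were called higher in TRIF-KO, and of 20 measured, 8 in WT, with 0 lower in either (medians 0.36 and 0.61). Fkbp5, a co-chaperone of the glucocorticoid receptor, stood at 125 CPM in TRIF-KO TNF and 18.4 in TRIF-KO PBS (log2 2.77, 2.36 to 3.20) and at 123 CPM in WT TNF and 26.8 in WT PBS (log2 2.20, 1.84 to 2.57). Tsc22d3 (GILZ), an anti-inflammatory leucine zipper protein, stood at 293 CPM in TRIF-KO TNF and 107 in TRIF-KO PBS (log2 1.46, 1.28 to 1.64) and at 322 CPM in WT TNF and 135 in WT PBS (log2 1.25, 1.08 to 1.42). Zfp36l2, which binds AU-rich elements and promotes mRNA decay, stood at 630.4 CPM in TRIF-KO TNF and 126 in TRIF-KO PBS (log2 2.33, 2.17 to 2.49) and at 752 CPM in WT TNF and 189 in WT PBS (log2 1.99, 1.86 to 2.13). Pik3ip1, an inhibitor of PI3 kinase, had log2 ratios of 2.01, 1.69 to 2.35 in TRIF-KO and 1.38, 1.10 to 1.66 in WT. The glucocorticoid receptor gene Nr3c1 itself stood at 84.4 CPM in TRIF-KO TNF, 85.5 in TRIF-KO PBS, 83.1 in WT TNF and 115 in WT PBS. The letters of the glucocorticoid response element (GNACA and TGTNC with any 3 bases between them) had 0 matches in the promoter windows of the genes called higher in both genotypes, and occur in 0.387% of all windows.

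Immediate-early genes overlapped with this group through Dusp1, a phosphatase that switches off MAP kinases, at 55.9 CPM in TRIF-KO TNF and 8.12 in TRIF-KO PBS (log2 2.78, 2.18 to 3.46) and at 80.4 CPM in WT TNF and 7.96 in WT PBS (log2 3.34, 2.71 to 4.03). Fos stood at 48.1 CPM in TRIF-KO TNF and 12.0 in TRIF-KO PBS (log2 2.002, 1.49 to 2.56) and at 46.0 CPM in WT TNF and 9.77 in WT PBS (log2 2.24, 1.65 to 2.88), and Jun at 138 CPM in TRIF-KO TNF and 63.2 in TRIF-KO PBS (log2 1.13, 0.90 to 1.37) and at 147 CPM in WT TNF and 66.6 in WT PBS (log2 1.15, 0.90 to 1.39). With a gate of at least 5 UMIs the TRIF-KO ratio of Jun was 0.87, and without the members holding a Fcer2a UMI its WT ratio was 0.82. Egr3, which follows antigen receptor signalling, was called lower in WT (log2 -1.38, -1.75 to -1.01) and stood at -0.28, -0.62 to 0.07 in TRIF-KO. Of 22 measured, 5 were called higher and 0 lower in TRIF-KO, and 6 higher and 1 lower in WT. Ptpn22, a phosphatase that restrains antigen receptor signalling, stood at 343 CPM in TRIF-KO TNF and 107 in TRIF-KO PBS (log2 1.68, 1.51 to 1.86) and at 386 CPM in WT TNF and 148 in WT PBS (log2 1.38, 1.22 to 1.54), the only call among 24 antigen receptor signalling genes in either genotype.

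NF-kB target genes were called about as often as all genes 4 h after TNF. Of 34 measured, 0 were called higher and 1 lower in TRIF-KO, and 1 higher and 2 lower in WT, with medians of -0.14 and -0.40. Over all genes, 2% were called higher and 1.87% lower in TRIF-KO, and 1.78% higher and 5.02% lower in WT. The all-gene medians were -0.03 and -0.16. Nfkbia, the inhibitor that NF-kB induces against itself, stood at 191 CPM in TRIF-KO TNF, 176 in TRIF-KO PBS, 193 in WT TNF and 198 in WT PBS, and Tnfaip3 (A20), another such inhibitor, at 10.5 CPM in TRIF-KO TNF, 13.8 in TRIF-KO PBS, 9.53 in WT TNF and 14.5 in WT PBS (log2 -0.40 in TRIF-KO and -0.60 in WT). Icam1, an adhesion molecule, stood at 48.0 CPM in TRIF-KO TNF, 49.8 in TRIF-KO PBS, 51.3 in WT TNF and 49.9 in WT PBS, with ratios of -0.05, -0.34 to 0.24 in TRIF-KO and 0.04, -0.28 to 0.37 in WT. Cd83, a marker of activated B cells, was called higher in WT (log2 1.28, 1.05 to 1.51) and stood at 0.84, 0.62 to 1.08 in TRIF-KO. Cd40, the receptor for T cell help, was called lower in both (log2 -1.16, -1.45 to -0.87 in TRIF-KO and -1.20, -1.57 to -0.84 in WT). Nfkbid was called lower in WT (log2 -1.04, -1.40 to -0.69) and stood at -0.46, -0.76 to -0.16 in TRIF-KO, but stood at -0.88 in WT under median-of-ratios scaling and was not called. With a gate of at least 5 UMIs the WT ratio of Cd40 was -0.88.

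**Figure D3:**
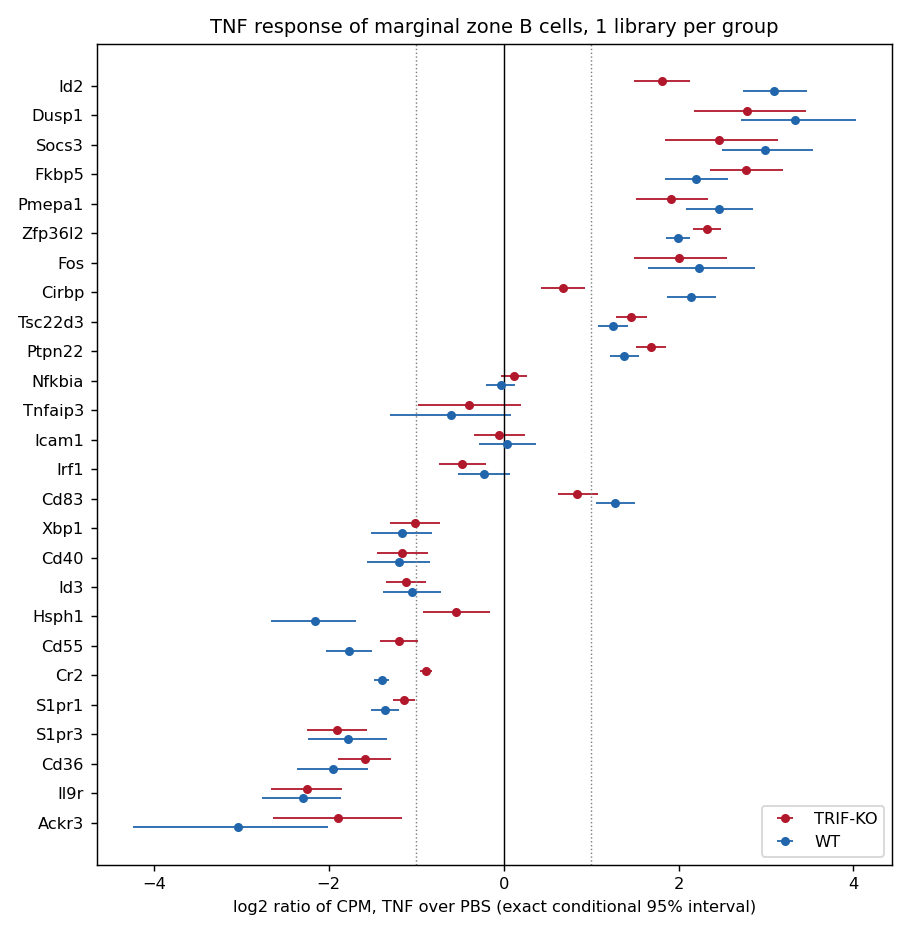
Log2 ratio of CPM, TNF over PBS, in members of the TRIF-KO (red, upper of each pair) and WT libraries (blue, lower), with exact conditional 95% intervals; dotted lines mark 2-fold. Id2, Dusp1, Socs3 and Fkbp5 lie beyond 2-fold on the high side in both genotypes, Nfkbia and Icam1 near 0, Tnfaip3 below 0 but within 2-fold, and S1pr1, S1pr3, Cd36, Il9r and Ackr3 beyond 2-fold on the low side.

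The plot of TNF responses by genotype shows where the pairs part, among them the chaperone gene Hsph1 and the cold-inducible gene Cirbp. Hsph1, which encodes the chaperone HSP110, stood at 22.3 CPM in TRIF-KO TNF and 32.5 in TRIF-KO PBS (log2 -0.54, -0.92 to -0.16) and at 12.7 CPM in WT TNF and 56.8 in WT PBS (log2 -2.16, -2.66 to -1.69), a difference between the responses of 1.61, 1.01 to 2.20. It already differed under PBS, at log2 -0.81, -1.19 to -0.43 for TRIF-KO over WT. Of 20 heat shock and chaperone genes, 0 were called in TRIF-KO and 4 were called lower in WT (Hsph1, Dnaja1, Ahsa2 and Stip1). The difference between the responses was called for 2 of the 20, Hsph1 and Ahsa2, and under PBS the list's median of TRIF-KO over WT was -0.35. Cirbp, a cold-inducible RNA-binding protein, stood at 93.7 CPM in TRIF-KO TNF and 58.6 in TRIF-KO PBS (log2 0.68, 0.43 to 0.93) and at 195 CPM in WT TNF and 44.2 in WT PBS (log2 2.14, 1.86 to 2.43), and Rbm3, another, at 670.3 CPM in TRIF-KO TNF and 389.6 in TRIF-KO PBS (log2 0.78, 0.69 to 0.88) and at 772 CPM in WT TNF and 210.3 in WT PBS (log2 1.88, 1.75 to 2.01). Both were called for the difference between the responses (log2 -1.46, -1.83 to -1.09 for Cirbp and -1.09, -1.25 to -0.93 for Rbm3). Rbm3 already differed under PBS, at log2 0.89, 0.74 to 1.04 for TRIF-KO over WT, and with the gate applied after thinning its difference between the responses was -0.58.

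Few genes of the secretory programme were called, most of them lower. Xbp1, which drives the expansion of the secretory pathway in plasma cells, stood at 32.2 CPM in TRIF-KO TNF and 65.0 in TRIF-KO PBS (log2 -1.01, -1.30 to -0.73) and at 30.2 CPM in WT TNF and 67.7 in WT PBS (log2 -1.17, -1.51 to -0.82). Hsp90b1, the chaperone of the endoplasmic reticulum that folds integrins and Toll-like receptors, was called lower in WT (log2 -1.16, -1.29 to -1.02) and stood at -0.68, -0.80 to -0.55 in TRIF-KO. Ighm, the IgM heavy chain, stood at 2271 CPM in TRIF-KO TNF and 3434 in TRIF-KO PBS and at 2056 CPM in WT TNF and 3451 in WT PBS, lower by less than 2-fold. Of 23 genes of the secretory and plasma cell list, 1 was called higher and 2 lower in TRIF-KO, and 0 higher and 3 lower in WT. The gene called higher was Prdm1, the plasma cell regulator Blimp-1 (9.90 CPM in TRIF-KO TNF and 4.95 in TRIF-KO PBS, log2 1.001, 0.16 to 1.94), and Derl3 was called lower there with Xbp1 (log2 -2.05, -2.95 to -1.18). Bcl2l11, the death-promoting protein BIM, was called higher in WT (103 CPM in WT TNF and 34.4 in WT PBS, log2 1.58, 1.26 to 1.92) and stood at 0.87, 0.57 to 1.18 in TRIF-KO. Some of these calls lay at the threshold: with a gate of at least 5 UMIs the TRIF-KO ratio of Xbp1 was -0.73, under median-of-ratios scaling the WT ratio of Hsp90b1 was -0.99, and with each cell weighted equally the TRIF-KO ratio of Prdm1 was 0.69.

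Other genes had wide margins in 1 genotype or the other. In WT they included B3gnt7, a glycosyltransferase (12.2 CPM in WT TNF and 0.724 in WT PBS, log2 4.07, 2.14 to 7.16), and Tgm2, transglutaminase 2, with 21 UMIs in WT TNF and 0 in WT PBS, at least 5.12-fold higher against a floor of 3 counts in the library. In TRIF-KO they included Rgs1, which desensitises chemokine receptors (16.9 CPM in TRIF-KO TNF and 1.41 in TRIF-KO PBS, log2 3.58, 2.18 to 5.48, but 1.01 with the gate applied after thinning), and Marco, a scavenger receptor of marginal zone macrophages, with 65 UMIs in TRIF-KO TNF and 0 in TRIF-KO PBS, at least 8.55-fold higher. On the low side, Tspan15, a tetraspanin that binds the protease ADAM10, stood at 1.53 CPM in TRIF-KO TNF and 20.5 in TRIF-KO PBS (log2 -3.74, -4.82 to -2.80), and Il4i1, a secreted amino acid oxidase of B cells, at 29.0 CPM in TRIF-KO TNF and 88.0 in TRIF-KO PBS (log2 -1.60, -1.87 to -1.33). In WT the low side included Gdf11, a TGF-beta family ligand (4.76 CPM in WT TNF and 25.3 in WT PBS, log2 -2.41, -3.25 to -1.65), and Clec12a, an inhibitory lectin (1.06 CPM in WT TNF and 9.41 in WT PBS, log2 -3.15, -5.13 to -1.62), which was also called lower in TRIF-KO (log2 -2.42, -3.35 to -1.55). The summed macrophage markers moved with Marco, at 53.3 CPM in TRIF-KO TNF and 24.7 in TRIF-KO PBS, and their part in it was not tested.

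The second comparison asked whether the TNF response depended on the genotype. The difference between the responses, TRIF-KO minus WT, was called higher for 313 of 9319 genes (3.36%) and lower for 150 (1.61%), with a median gene at 0.14. Median-of-ratios scaling gave 187 higher and 210 lower and a median of 0.0013, so the excess on the high side depended on the scaling. Id2, Cirbp and Rbm3 were higher with TNF by less in TRIF-KO than in WT, whereas Cd9 and Arrdc3 lay on opposite sides in the genotypes. Arrdc3, an arrestin-domain protein, stood at log2 -0.67, -1.23 to -0.11 in TRIF-KO and 0.95, 0.48 to 1.45 in WT, neither of them called, with a called difference of -1.62, -2.33 to -0.92. Rgs10, a regulator of G protein signalling and of chemokine receptors, stood at 39.5 CPM in TRIF-KO TNF, 96.4 in TRIF-KO PBS, 62.7 in WT TNF and 65.5 in WT PBS and was called lower with TNF in TRIF-KO alone (log2 -1.29, -1.53 to -1.04, against -0.06, -0.35 to 0.22 in WT), with a called difference of -1.23, -1.59 to -0.86. Klf3, a transcription factor of marginal zone B cell fate in mice, lay the other way (log2 -0.07, -0.35 to 0.22 in TRIF-KO and -1.29, -1.64 to -0.94 in WT, difference 1.21, 0.78 to 1.65). Neither call held everywhere: the difference of Rgs10 was -0.68 without the members that held markers of other cell types, and that of Klf3 was 0.42 with the gate applied after thinning.

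After TNF, 122 of 9358 genes (1.3%) were called higher in TRIF-KO than in WT and 51 (0.545%) lower. The genes called higher with the widest margin were Tbc1d4, Ifitm1, S100a4, Vcam1, Fabp5, C1qc, Adam23 and Hmox1. Their UMIs lay in 6 to 39 of the 711 members in TRIF-KO TNF. The top cell held 34.0% of the Tbc1d4 UMIs in TRIF-KO TNF, 40.4% of those of Ifitm1 and 57.8% of those of Vcam1. Several mark macrophages, among them Vcam1, C1qc (complement C1q) and Hmox1 (haem oxygenase), and the macrophage markers summed to 53.3 CPM in TRIF-KO TNF and 13.5 in WT TNF. Without the members that held markers of other cell types 62 genes were called higher. The ratio was then -0.34 for Ifitm1, -0.66 for S100a4 and -1.66 for Adam23, each with the sign turned. Genes called lower were spread over cells, such as Socs3, Gem (log2 -1.32, -1.60 to -1.03), Slc15a2, a peptide transporter (log2 -2.54, -3.45 to -1.70), and Ppl, the cytolinker periplakin (log2 -2.03, -2.87 to -1.23).

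Under PBS, 73 of 9346 genes (0.781%) were called higher in TRIF-KO than in WT and 135 (1.44%) lower. Median-of-ratios scaling gave 102 and 93. The median depth of the members was 6276 UMIs in TRIF-KO PBS and 9118.5 in WT PBS, and its part in these differences was not tested. Type I interferon-stimulated genes lay mostly on the low side. Of 39 measured, 0 were called higher and 4 lower, and the median was -0.27 against -0.10 over all genes. With Rsad2, which was left out of the calls, 9 of 40 lay above and 31 below a ratio of 1, while 38.6% of all tested genes lay above 1 in this comparison. Ifit3, an antiviral protein whose promoter is shown above, stood at 8.83 CPM in TRIF-KO PBS and 25.7 in WT PBS (log2 -1.54, -2.26 to -0.87). Irf7, the factor that amplifies type I interferon, stood at 6.00 CPM in TRIF-KO PBS and 14.8 in WT PBS (log2 -1.31, -2.21 to -0.46), and the paralogue of Ifit3, Ifit3b, at 2.12 CPM in TRIF-KO PBS and 7.24 in WT PBS (log2 -1.77, -3.38 to -0.40). Ifit3 and Ifit3b are near-identical copies, so reads may be split between them. Slfn5 was called lower too (log2 -1.39, -1.92 to -0.88), but stood at -0.03 when the gate was applied after thinning and at -0.14 without cells holding Fcer2a. Ifit3b stood at -0.25 with a gate of at least 5 UMIs, and Irf7 at -0.89 without cells holding Fcer2a. The 71 Ifit3 UMIs of WT PBS lay in 20 members. A single cell held 19.7% of them, and the ratio without the top cells was log2 -1.47. In other B cells Ifit3 lay the other way, at 12.9 CPM in TRIF-KO PBS and 9.59 in WT PBS. Irf7 (16.1 and 21.1 CPM), Ifit3b (1.58 and 2.74) and Slfn5 (35.7 and 47.1) were lower in TRIF-KO PBS in other B cells too.

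After TNF, 1 of the interferon genes was called between the genotypes. Ifit3 stood at 36.0 CPM in TRIF-KO TNF and 33.6 in WT TNF (log2 0.10, -0.21 to 0.42) and Irf7 at 22.2 CPM in TRIF-KO TNF and 18.5 in WT TNF (log2 0.26, -0.16 to 0.69). Of 39 measured, 1 was called higher in TRIF-KO than in WT (Oas3, which turned to -1.35 with the gate applied after thinning) and 0 lower, and 26 of 40 lay above and 14 below a ratio of 1, with 56.7% of all tested genes above 1. The response to TNF had 9 calls higher and 0 lower in TRIF-KO (median 0.33) and 2 higher and 1 lower in WT (median 0.08). Over all genes, 2% were called higher and 1.87% lower in TRIF-KO, and 1.78% higher and 5.02% lower in WT. In other B cells the same list had 4 calls higher and 0 lower in TRIF-KO (median 0.46) and 2 higher and 0 lower in WT (median 0.25). Zbp1, a sensor of nucleic acids in cell death, was called higher in both (log2 1.28, 0.91 to 1.68 in TRIF-KO and 1.31, 0.94 to 1.70 in WT), but not among members with at most 5% mitochondrial UMIs (0.58 in TRIF-KO and 0.93 in WT). For the difference between the responses 7 of 39 were called higher and 0 lower, a count that shares the PBS libraries with the comparison above. Summed over the list, the level was 4477.0 CPM in TRIF-KO TNF, 4250.7 in TRIF-KO PBS, 4391.1 in WT TNF and 4884.8 in WT PBS. Ly6e alone gave 1221, 1357, 1264 and 1572 CPM of these in the same order. The sum thus follows the abundant genes more than the list as a whole.

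**Figure D4:**
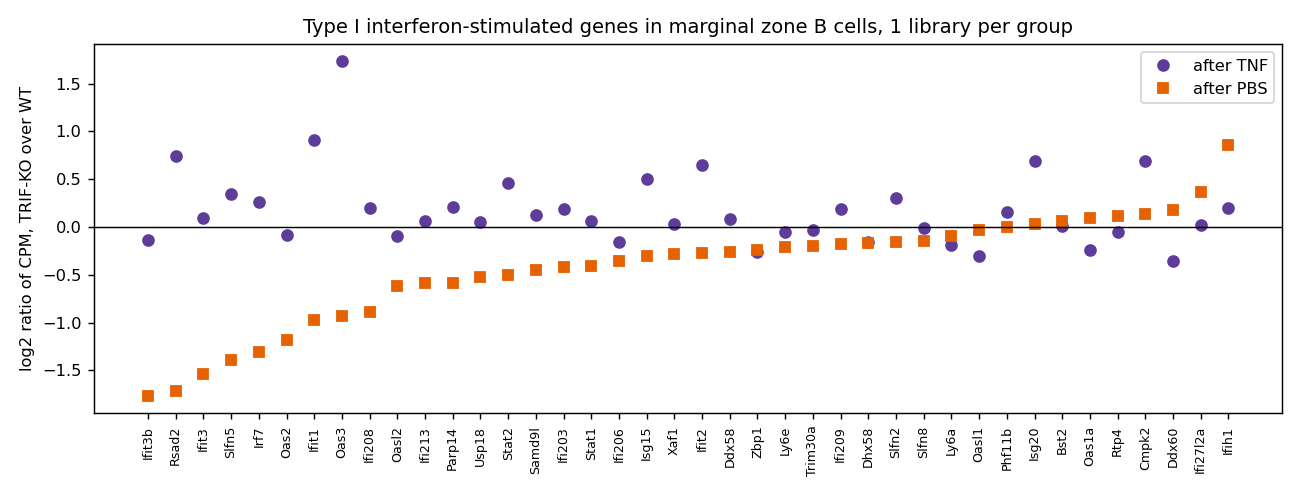
Log2 ratio of CPM, TRIF-KO over WT, for each measured type I interferon-stimulated gene in members (horizontal axis, ordered by the PBS ratio) after TNF (circles) and after PBS (squares). Of the 40 genes, 26 circles lie above 0 and 14 below, and 9 squares above and 31 below, while 56.7% of all tested genes lie above 0 after TNF and 38.6% after PBS.

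The plot of interferon genes by genotype shows that the PBS ratios were spread unevenly, with Ifit3b, Rsad2, Ifit3, Slfn5 and Irf7 at the low end and most of the list within 2-fold. Rsad2 stood at 5.30 CPM in TRIF-KO PBS and 17.4 in WT PBS (log2 -1.71, -2.66 to -0.85), but lay under 10% of its level in the cells other than B cells and was left out of the counts, since free RNA in the droplets can give such a level. Genes induced by interferon gamma gave 0 calls higher and 1 lower of 32 under PBS, Irgm2 (log2 -1.07, -1.95 to -0.25), which stood at -0.98 under median-of-ratios scaling. The class I gene H2-K1 stood at 1418 CPM in TRIF-KO PBS and 1295 in WT PBS.

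Mki67 and Prc1, which dividing cells express, were called higher in TRIF-KO PBS than in WT PBS, with Mki67 at 60.05 CPM in TRIF-KO PBS and 29.3 in WT PBS (log2 1.03, 0.64 to 1.43) and Prc1 at 20.8 CPM in TRIF-KO PBS and 6.88 in WT PBS (log2 1.60, 0.83 to 2.43). A few cells carried them, with 32.9% of the Mki67 UMIs in 1 cell in TRIF-KO PBS and 60.5% in WT PBS. With the gate applied after thinning both ratios turned, to -2.97 for Mki67 and -1.14 for Prc1. Mid1 was called lower (log2 -2.95, -4.01 to -2.04) under PBS and lower after TNF as well (log2 -1.98, -3.01 to -1.01). Tbc1d4 had 14 UMIs in TRIF-KO PBS and 0 in WT PBS, at least 4.55-fold higher against a floor of 3 counts in the library, all in 1 cell.

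The third comparison set the members beside other B cells of the same libraries. Across all 4 libraries, 175 of 10614 genes (1.65%) were at least 2-fold higher in members and 77 (0.725%) at least 2-fold lower, a description of cells chosen by 3 of their genes. Among those with the highest ratio were Nrp2 (12.3 CPM in TRIF-KO TNF, 15.2 in TRIF-KO PBS, 10.9 in WT TNF and 16.3 in WT PBS), which encodes the receptor neuropilin 2, Ackr2, an atypical chemokine receptor, and Nebl, an actin-binding protein (28.6 CPM in TRIF-KO TNF, 53.0 in TRIF-KO PBS, 37.6 in WT TNF and 59.0 in WT PBS, against 0.963, 3.56, 2.28 and 2.47 CPM in other B cells). Klf2, which maintains follicular B cell identity and homing in mice, was among the lowest, at 243 CPM in TRIF-KO TNF, 197 in TRIF-KO PBS, 222 in WT TNF and 183 in WT PBS in members and 753 CPM in TRIF-KO TNF, 807 in TRIF-KO PBS, 686 in WT TNF and 746 in WT PBS in other B cells. Plac8 stood at 1066 CPM in TRIF-KO TNF, 1366 in TRIF-KO PBS, 1116 in WT TNF and 965 in WT PBS in members, against 216, 353, 267 and 242 CPM. Myc stood at 131 CPM in TRIF-KO TNF, 63.2 in TRIF-KO PBS, 147 in WT TNF and 109 in WT PBS in members and 45.9 CPM in TRIF-KO TNF, 20.2 in TRIF-KO PBS, 51.3 in WT TNF and 18.6 in WT PBS in other B cells.

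For the TNF response, each kind of B cell was compared with itself under PBS. The response of members minus that of other B cells was called higher for 72 of 9208 genes (0.782%) and lower for 100 (1.09%) in TRIF-KO, and higher for 133 (1.44%) and lower for 130 (1.41%) in WT, and 15 genes were called in the same direction in both. Socs3 was among them. In other B cells it stood at 75.7 CPM in TRIF-KO TNF, 4.08 in TRIF-KO PBS, 178 in WT TNF and 7.13 in WT PBS (log2 4.21 in TRIF-KO and 4.64 in WT). The response in members less that in other B cells was log2 -1.76 in TRIF-KO and -1.64 in WT. Pmepa1 differed likewise (-1.07 in TRIF-KO and -1.22 in WT), and stood at 29.4 CPM in TRIF-KO TNF, 3.69 in TRIF-KO PBS, 67.8 in WT TNF and 5.21 in WT PBS in other B cells. The level of Pmepa1 after TNF was thus higher in members than in other B cells, while its ratio to PBS was smaller. The ratio of Cd36 was lower in members than in other B cells, with differences of -1.40 in TRIF-KO and -2.25 in WT. Itm2c, a membrane protein, lay the other way (1.18 in TRIF-KO and 1.86 in WT). The Id2 response was larger in members, by log2 0.75 in TRIF-KO, short of 2-fold, and by 1.31 in WT.

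**Figure D5:**
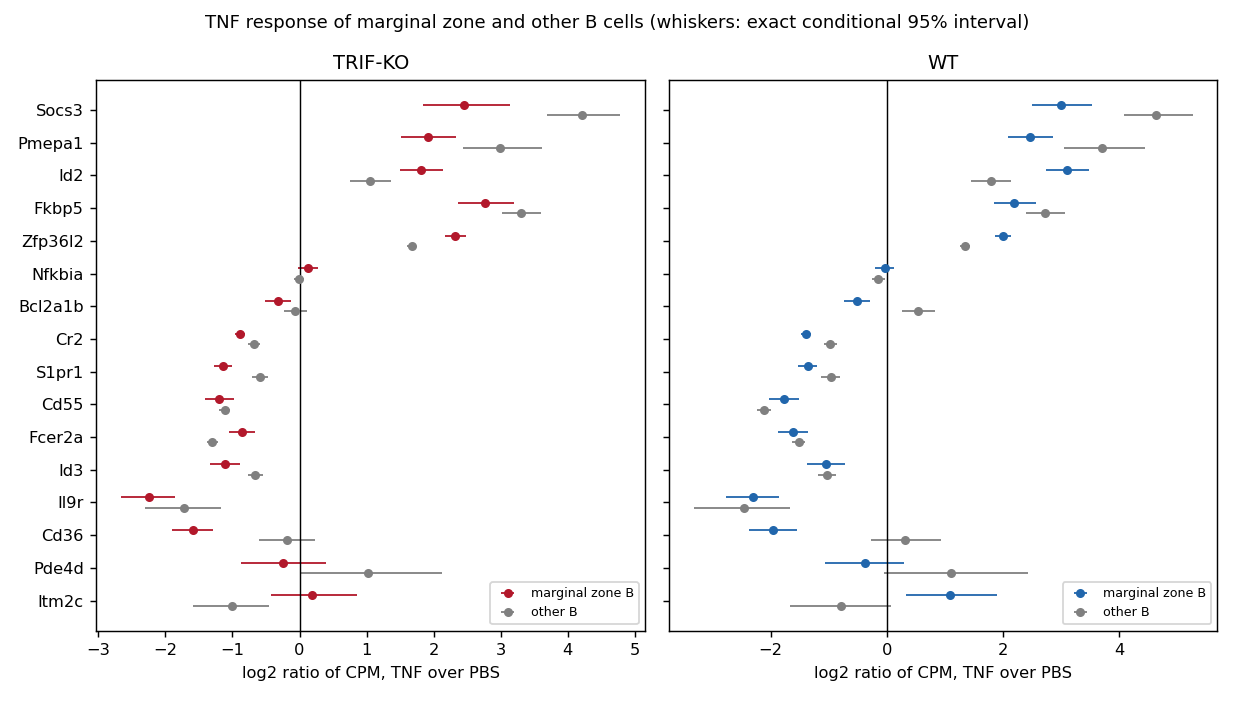
Log2 ratio of CPM, TNF over PBS, in members (coloured) and in other B cells (grey) of the TRIF-KO (left) and WT libraries (right), with exact conditional 95% intervals. Socs3 and Pmepa1 responded less in members than in other B cells of both genotypes, Id2 and Zfp36l2 more, the difference for Zfp36l2 short of 2-fold in both. The ratio of Cd36 was lower in members than in other B cells of both genotypes.

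The shares of cells with a UMI after TNF were also read by the number of gate UMIs (0, 1, 2, 3 or 4, and 5 or more), thinned to 2000 UMIs. In TRIF-KO TNF, Id2 was read in 3.53%, 4.65%, 9.91%, 15.4% and 21.6% of cells. In WT TNF, Id2 was read in 10.2%, 17.2%, 22.0%, 26.1% and 35.3%. The Id2 share was higher at each step in both libraries, whereas that of Socs3 was uneven. Socs3 was read in 12.8%, 12.9%, 13.8%, 6.47% and 6.47% in TRIF-KO TNF and in 24.1%, 25.4%, 17.7%, 18.9% and 12.7% in WT TNF. Its share was lowest among cells with 3 or more gate UMIs in TRIF-KO TNF and among those with 5 or more in WT TNF, with no steady decline between the steps. The plot of responses beside other B cells gives the sums over all members, in which cells near the threshold count with the rest. Glucocorticoid-responsive genes had smaller medians in members (0.36 in TRIF-KO and 0.61 in WT) than in other B cells (0.57 and 0.91), while those of the chaperones were close, at -0.05 and -0.53 in members and -0.07 and -0.58 in other B cells.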

How the data were processed

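Droplet 3' single-cell RNA sequencing of spleen cells gave 1 library per group. The deposited matrices hold UMI counts per gene and barcode. The submitters' processing notes name Cell Ranger 3.0, Seurat 4.1.1 and mm10, whereas per the file headers the counts came from Cell Ranger 6.0.1, and no source used here names the annotation release. The authors' cell types were not used here. Barcodes entered with 200 or more genes and no more than 10% of UMIs from mitochondrial genes, members were gated by the rule given above, and doublets were left in, with Scrublet removal as an alternative.

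Counts were summed over the members of a library with Python 3.11.15, numpy 2.4.6, scipy 1.17.1, pandas 2.3.3 and scanpy 1.11.5. A gene counted as measured from 60 UMIs in the sum of the 4 libraries, and was left out where its members' CPM lay under 10% of that in cells without Cd79a, Cd79b and Ms4a1 UMIs. Ratios carry exact conditional 95% intervals, levels Poisson intervals and shares Clopper-Pearson intervals, all for counting error only. Differences between log2 ratios used 0.5 added to each count and a normal interval. With 1 library per group no test was possible and no p-value is given. A call needs 2-fold and an interval that leaves out equality. The calculation was checked on simulated data.

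The members and gene lists were chosen with earlier results of these data known. Named genes were the 8 highest and 8 lowest calls by interval bound per comparison (5 and 5 for the difference between responses, 10 and 10 against other B cells), without mitochondrial, ribosomal, receptor-chain, haemoglobin, sex-linked and predicted genes, up to 4 members per list, and a fixed set of pathway genes. Further list members were named after their values were seen, among them Cxcr4, Ccr6, Cnr2, Hes1, Hes5, Nr3c1, Plac8, H2-K1 and Rsad2. Alternatives were other scalings, equal weight per cell, leaving out each gene's top cell, other gates and quality limits, Scrublet, a minimum of 200 UMIs per gene, thinning of UMIs and calls by fold alone. A gate of at least 5 UMIs and leaving out members with macrophage markers or with Fcer2a were added after the data were seen. Gene coordinates are GENCODE M21 on GRCm38.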

Additional observations from a re-analysis of the deposited data

Results flagged for a closer look

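In 10 genes the TNF response was called in opposite directions in the genotypes, each ratio at least 2-fold with an interval leaving out equality. The measured genes numbered 9356 in TRIF-KO and 9335 in WT, and 43 were called higher and 74 lower in both. With 1 library per group these differences were not tested. Each value below is the log2 ratio of TNF over PBS.

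For 4 genes that macrophages and other myeloid cells express, the ratio was positive in TRIF-KO and negative in WT. It was 1.86 in TRIF-KO and -3.82 in WT for Vcam1, 1.496 and -2.91 for C1qc, 1.01 and -3.21 for Tmem176b, and 4.59 and -1.64 for Tmem176a. Few cells held these RNAs: the 83 Vcam1 UMIs of TRIF-KO TNF lay in 8 cells, 48 of them in 1 cell, and the 31 of WT PBS in 8 cells, 23 of them in 1 cell. The summed macrophage markers were 53.3 CPM in TRIF-KO TNF, 24.7 in TRIF-KO PBS, 13.5 in WT TNF and 36.6 in WT PBS, and their part was not tested.

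The ratio was also positive in TRIF-KO and negative in WT for Fhod1 (1.11 and -1.24) and Rmi2 (1.51 and -1.45). It was negative in TRIF-KO and positive in WT for Gm44739 (-2.16 and 1.47), Nrgn (-1.47 and 3.13), Gm11361 (-1.05 and 1.58) and Ftl1-ps1 (-1.61 and 1.74). Fhod1, an actin-nucleating formin, was spread over cells, with 60 UMIs in 54 cells of TRIF-KO TNF and 31 in 30 cells of WT PBS. The Gm genes and Ftl1-ps1 are predicted genes or a pseudogene whose reads may be shared with near-identical copies.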

How the results depend on the processing

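No paired analysis was possible because each group is 1 library and the labels give no shared replicate numbers. For the same reason no replicate could be left out. Over the alternatives, the named genes' ratios stayed within their counting interval in 7942 cases, moved out of it in 867 and changed sign while called in 15. A minimum of 200 UMIs per gene and calls by fold alone leave every ratio as it was. Each gave 597 of the cases that stayed, and these cases say nothing about stability.

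Median-of-ratios scaling gave 276 higher and 277 lower genes for TNF over PBS in WT, and 187 higher for the difference between responses. A total that leaves out haemoglobin, immunoglobulin, mitochondrial and ribosomal genes gave 226 higher and 340 lower in WT. A minimum of 200 UMIs, which leaves fewer genes, gave 90 higher and 65 lower for TNF over PBS in TRIF-KO, 76 and 188 in WT, 17 and 8 for TRIF-KO over WT after TNF, 12 and 34 under PBS, and 123 and 57 for the difference between responses. Genes lower in TRIF-KO under PBS numbered 226 with at most 5% mitochondrial UMIs and 206 with a gate of at least 5 UMIs, and genes higher in TRIF-KO after TNF 62 without members holding other cell types' markers.

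The share of members among B cells, in the order TRIF-KO TNF, TRIF-KO PBS, WT TNF and WT PBS, was 6.79%, 5.19%, 7.47% and 7.79% with the gate applied after thinning. It was 17.1%, 9.98%, 14.0% and 18.7% with a gate of at least 3 UMIs, 9.93%, 4.97%, 6.87% and 13.0% with at least 5, and 19.9%, 10.6%, 15.5% and 20.2% with at most 5% mitochondrial UMIs.

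The gate applied after thinning read every condition of the rule on thinned counts. It took 624 cells, which can include cells that the full rule left out. This gate turned the ratios of TRIF-KO over WT of Ifitm1 (-1.20) and Oas3 (-1.35) after TNF and of Nusap1 (-0.38), Prc1 (-1.14) and Mki67 (-2.97) under PBS. It also turned the difference between responses of Slfn5 (-0.42), Oas3 (-0.56) and Gem (0.19). At most 5% mitochondrial UMIs turned Vcam1 in WT (0.055) and the difference of C1qb (-0.79). Leaving out members with other cell types' markers turned Ifitm1 (-0.34), S100a4 (-0.66) and Adam23 (-1.66) after TNF. A gate of at least 5 UMIs turned Sox4 under PBS (-0.40) and the difference of Pcp4 (0.46). The cause was not tested.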
